A study of Mus musculus with 31 samples.

Results

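Slc12a5 and Slc12a2, the genes of the neuronal chloride exporter KCC2 and the chloride importer NKCC1, were followed in the hippocampus of Glud1 transgenic (Tg) and wild type (wt) mice between 10 days and 20 months of age. They are 2 of the 18193 genes that the array annotation used here names with a probe set of their own, and they were taken by gene symbol. Of 45037 mouse probe sets on each array, 2 are annotated to Slc12a5 alone and 3 to Slc12a2 alone, and all 5 were bright enough to be tested. The array data came from whole dissected hippocampi of male C57BL/6 mice, on 31 arrays that were each taken as 1 mouse. The Tg groups held 3 mice each at 10 days, 4.5 months, 9 months, 14.5 months and 20 months. The wt groups held 4 mice at 10 days and 3 mice at each of the other ages. Tg mice carry an added coding sequence of Glud1, the gene of glutamate dehydrogenase, which is overexpressed in their neurons, while wt mice of the same strain lack it. The array reads Glud1 at its 3′ end outside the added coding sequence, and therefore gives no check of the genotype labels.

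Chloride inside a neuron decides what GABA does when it opens the GABA-A receptor, which is a chloride channel. NKCC1 carries sodium, potassium and chloride into the cell, KCC2 carries potassium and chloride out, and young neurons are known for high chloride that falls as KCC2 appears during postnatal life. In adult brain KCC2 is found almost only in neurons, whereas NKCC1 is made in glia, endothelium and, at a high level, in the epithelium of the choroid plexus, which secretes cerebrospinal fluid. Because each array measured whole tissue, fewer cells of a type and less RNA per cell cannot be told apart.

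Slc12a5 starts at more than 1 place, and the RefSeq table used here (GRCm38.p6) gives 2 start windows on the plus strand of chromosome 2. The upstream start belongs to the transcript of KCC2a and the downstream start to that of KCC2b, the form that is known to predominate in the adult brain. The 250 bases before each start are printed, chr2:164960596-164960845 for the upstream and chr2:164967738-164967987 for the downstream start, because Usf1 and Usf2, which bind the E-box CACGTG, were among the regulators of KCC2 measured on the same arrays. Capitals mark CACGTG, which reads the same on both strands.
Slc12a5 upstream start: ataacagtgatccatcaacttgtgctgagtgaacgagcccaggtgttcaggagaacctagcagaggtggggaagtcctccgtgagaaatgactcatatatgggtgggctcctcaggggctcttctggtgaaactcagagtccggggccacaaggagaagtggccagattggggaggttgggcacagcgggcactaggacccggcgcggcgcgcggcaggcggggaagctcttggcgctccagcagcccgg
Slc12a5 downstream start: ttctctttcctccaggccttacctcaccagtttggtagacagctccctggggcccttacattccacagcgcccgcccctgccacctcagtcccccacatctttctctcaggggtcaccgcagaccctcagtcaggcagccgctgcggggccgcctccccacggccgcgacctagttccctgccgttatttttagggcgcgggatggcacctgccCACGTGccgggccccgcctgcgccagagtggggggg
The downstream window held 1 match, which ended 30 bases before the start, and the upstream window held 0. The letters were found in 1978 of the 32851 windows of 250 bases in the table (6.02%). A match is a description of the sequence and not a measured binding site. The gene spans positions 164960846 to 164999731.

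Each probe set has a signal that the authors scaled to the same trimmed mean on every array. It is given here as log2 after quantile normalization over the 31 arrays, and changes are differences on that log2 scale with their standard error (SE) unless a standard deviation (SD) is named. Tests are those of limma over 26877 probe sets, with p adjusted after Benjamini and Hochberg, and a change was called at an adjusted p under 0.05. All 5 neuron markers, all 5 astrocyte markers and all 4 measured markers of hippocampal neurons stayed above the median of the array on all 31 arrays. No other brain region was measured, so these levels do not check the hippocampal label itself. Choroid plexus signal differed widely between mice, and the mean log2 signal of its 9 markers ran between 4.984 and 10.98 over the arrays. The ratio of the 3′ to the 5′ probe set of Gapdh, a measure of RNA integrity and labelling, was between -0.0782 and 0.0182 (log2) at 4.5 months and between -0.463 and -0.14 at the other ages. That of beta-actin was between 0.709 and 0.963 at 9 months and between 0.315 and 0.552 at the other ages. Array medians were between 91.9 and 102 at 10 days and between 105 and 140 later, as deposited signals. The part of these measures in the age differences below was not tested, and no array or extraction batch is given in the labels.

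Slc12a5 was lowest at 10 days in both genotypes. Its brighter probe set, 1451674_at, read 12.98, 12.82 and 12.92 in Tg mice and 12.91, 13.01, 13.04 and 12.85 in wt mice at 10 days. At 4.5 months it read 13.56, 13.77 and 13.61 in Tg mice and 13.67, 13.62 and 13.77 in wt mice. No mouse of 4.5 months came near a mouse of 10 days, and the ranges of the genotypes overlapped at both ages. The level was higher at 4.5 months by 0.74 ± 0.04, or 1.67-fold (adjusted p = 6.88e-15, limma, n = 6 and 7). The other Slc12a5 probe set, 1425337_at, has a much lower signal and moved further. It averaged 10.38 ± 0.13 at 4.5 months and 8.89 ± 0.15 at 10 days (SD, n = 6 and 7), a difference of 1.5 ± 0.11 or 2.82-fold (adjusted p = 1.76e-12, limma). Its range was 10.23 to 10.57 at 4.5 months and 8.66 to 9.06 at 10 days, with no overlap.

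Between 4.5 and 9 months no change of Slc12a5 was called. At 9 months 1451674_at read 13.55, 13.59 and 13.78 in Tg mice and 13.58, 13.60 and 13.68 in wt mice, a difference from 4.5 months of -0.04 ± 0.05 (adjusted p = 0.54, limma), with a 95% interval of -0.13 to 0.06. For 1425337_at the same difference was -0.07 ± 0.12 (adjusted p = 0.647). In this comparison 45.4% of all probe sets were called. Without quantile normalization 1451674_at was instead higher at 9 months, by 0.19 (adjusted p = 0.0033), and 1425337_at was not called (-0.11, adjusted p = 0.478).

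After 9 months the readings of Slc12a5 parted. The brighter probe set had its lower adult level at 14.5 months, where it read 13.39, 13.34 and 13.40 in Tg mice and 13.36, 13.41 and 13.48 in wt mice. All 6 values were below all 6 values of 9 months. The fall was 0.23 on the log2 scale (SE 0.05, adjusted p = 0.000103, limma), in a comparison where 51.3% of all probe sets were called. At 20 months it read 13.47, 13.47 and 13.61 in Tg mice and 13.56, 13.45 and 13.52 in wt mice. The difference was 0.12 ± 0.05 from 14.5 months, at the threshold (adjusted p = 0.049953, limma), and -0.12 ± 0.05 from 9 months (adjusted p = 0.0403). The first of these was lost on leaving out any of 9 of the 12 mice and the second on leaving out any of 6, with adjusted p up to 0.142 and 0.152. The level at 20 months remained 0.58 ± 0.04 above that of 10 days (adjusted p = 1.87e-12). This probe set is among the brightest of the array, above 99.2% of all, and its size at 14.5 months depended on the scaling. Without quantile normalization the fall between 9 and 14.5 months was 0.63 on the log2 scale (adjusted p = 2.81e-11), the rise to 20 months was 0.39 (adjusted p = 4.15e-07), and 14.5 months was no longer called above 10 days (0.10, adjusted p = 0.0868, against 0.47 with it).

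The dimmer probe set went much lower in old age. At 14.5 months 1425337_at read 10.19, 10.20 and 10.30 in Tg mice and 10.38, 10.19 and 10.23 in wt mice, a difference of -0.06 ± 0.12 from 9 months (adjusted p = 0.692, limma). At 20 months it read 8.90, 9.10 and 9.21 in Tg mice and 9.24, 9.28 and 8.97 in wt mice. The 6 old mice thus lay below all 6 mice of 14.5 months and overlapped the mice of 10 days. The fall between 14.5 and 20 months was 1.13 on the log2 scale (SE 0.12, adjusted p = 9.97e-09), or 2.19-fold, where 33.3% of all probe sets were called. At 20 months the level differed from that of 10 days by 0.24 ± 0.11 (adjusted p = 0.075), a difference that was called without Tg mouse 1 of 10 days, without wt mouse 3 of 20 months, or without quantile normalization (0.31, adjusted p = 0.0185).

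Set between 20 and 4.5 months, both probe sets of Slc12a5 fell, by unequal amounts. The fall was 0.15 on the log2 scale in 1451674_at (SE 0.05, adjusted p = 0.00785, limma), or 1.11-fold, and 1.26 in 1425337_at (SE 0.12, adjusted p = 6.1e-10), or 2.40-fold. Without quantile normalization the first difference was -0.05 with an adjusted p of 0.494 and was no longer called, while the second was -1.27. Both probe sets are listed for the same source transcript, and which part of it each one reads is not given in the sources used here. Over the 31 arrays they correlated with a Pearson r of 0.719, and with 0.501 after the mean of each group was taken off, as a description of probe sets that share their arrays.

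**Figure D1:**
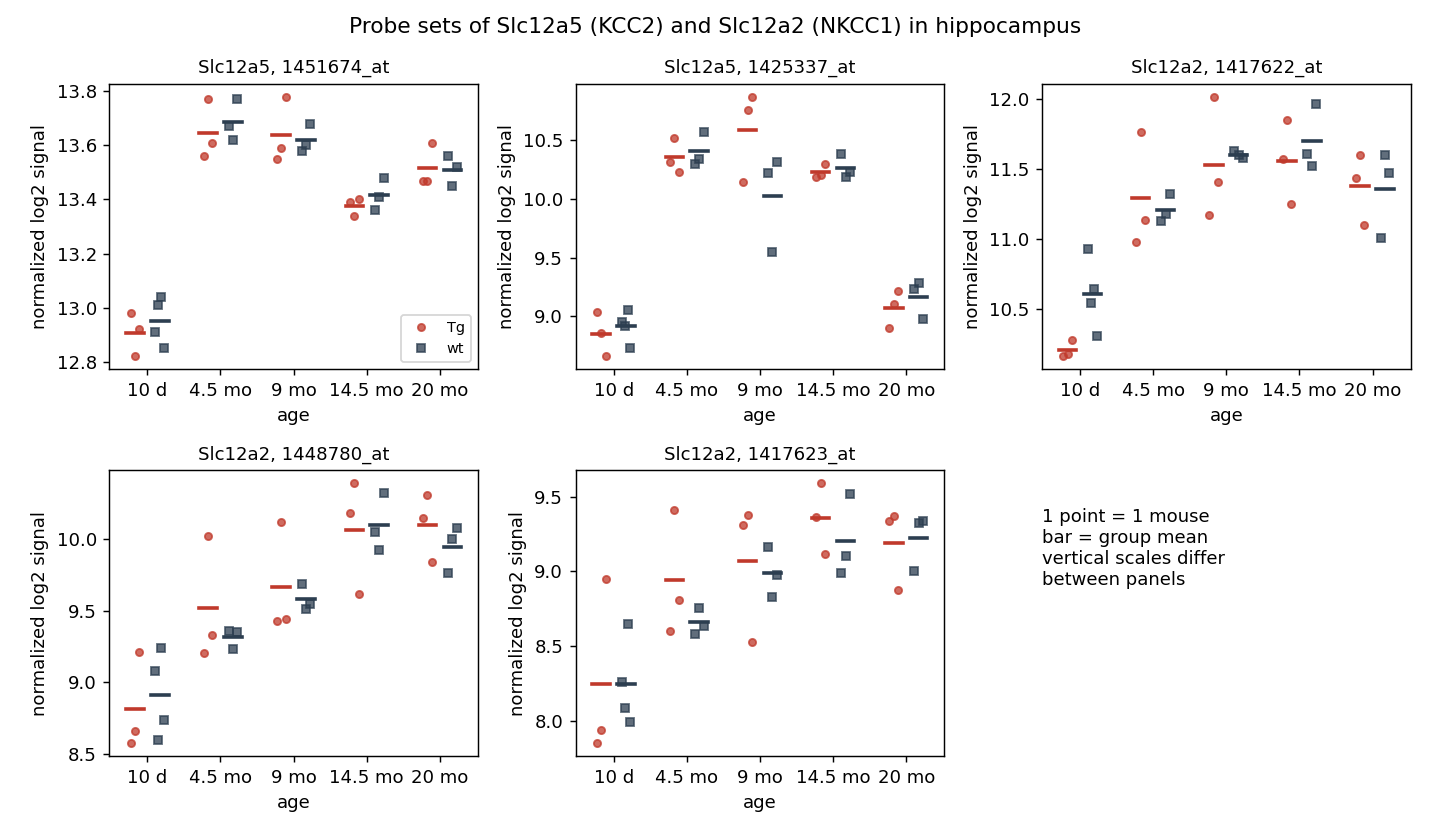
Normalized log2 signal (vertical axis) of the 2 Slc12a5 and 3 Slc12a2 probe sets at the 5 ages (horizontal axis), with a red circle for each Tg mouse, a dark square for each wt mouse and a bar for each group mean. Every panel is low at 10 days, and 1425337_at drops again at 20 months, where its 6 mice lie between 8.90 and 9.28.

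Slc12a2, on chromosome 18 (57878512 to 57946821), was also lowest at 10 days. Its brightest probe set, 1417622_at, read 10.16, 10.18 and 10.28 in Tg mice and 10.93, 10.54, 10.64 and 10.31 in wt mice at 10 days. At 4.5 months it read 10.98, 11.77 and 11.14 in Tg mice and 11.13, 11.18 and 11.32 in wt mice, so that all 6 adults were above all 7 pups. The difference of 0.85 ± 0.15, or 1.80-fold, was called (adjusted p = 1.63e-05, limma). The dimmer probe sets rose too, 1448780_at by 0.55 ± 0.15 (adjusted p = 0.00229) and 1417623_at by 0.55 ± 0.17 (adjusted p = 0.00636), but in these the ages overlapped. In 1448780_at the range was 9.20 to 10.02 at 4.5 months and 8.57 to 9.24 at 10 days. With that, all 5 probe sets of both transporters rose in early life, in a comparison in which 63.5% of all probe sets were called and 32.2% were called higher.

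In adult mice 1417622_at moved little between neighbouring ages. At 9 months it read 11.17, 12.02 and 11.41 in Tg mice and 11.63, 11.60 and 11.58 in wt mice. Values at 14.5 months were 11.57, 11.85 and 11.25 in Tg mice and 11.61, 11.52 and 11.97 in wt mice, and those at 20 months were 11.44, 11.60 and 11.10 in Tg mice and 11.01, 11.60 and 11.47 in wt mice. The 4 adult ages overlapped, and none of the steps was called, at 0.31 ± 0.15 for 9 against 4.5 months (adjusted p = 0.0903, limma, and 0.0163 to 0.282 with 1 mouse left out), 0.06 ± 0.15 for 14.5 against 9 months (adjusted p = 0.751) and -0.26 ± 0.15 for 20 against 14.5 months (adjusted p = 0.195). The difference between 20 and 4.5 months was 0.12 ± 0.15 (adjusted p = 0.581), with a 95% interval of -0.19 to 0.42. Against 10 days the level was still higher by 1.22 ± 0.15 at 14.5 months and by 0.96 ± 0.15 at 20 months (adjusted p = 6.91e-08 and 3.22e-06).

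Another reading of Slc12a2 rose in later life. In 1448780_at the signal averaged 10.08 ± 0.29 at 14.5 months and 9.62 ± 0.26 at 9 months (SD, n = 6 each), a rise of 0.46 ± 0.16 (adjusted p = 0.0161, limma), which was not called without Tg mouse 2 of 14.5 months (adjusted p = 0.0565). At 20 months it was 0.61 ± 0.16 higher than at 4.5 months (adjusted p = 0.0024), with 9.77 to 10.31 at 20 months and 9.20 to 10.02 at 4.5 months. In 1417623_at the difference between 20 and 4.5 months was 0.41 ± 0.18 (adjusted p = 0.071), and it was called without Tg mouse 2 of 4.5 months (0.52, adjusted p = 0.0214) or Tg mouse 3 of 20 months (0.49, adjusted p = 0.0407). At 14.5 against 4.5 months both were higher, 1448780_at by 0.66 ± 0.15 (adjusted p = 0.00149, limma) and 1417623_at by 0.48 ± 0.18 (adjusted p = 0.0362, a call lost on leaving out any of 7 of the 12 mice), while 1417622_at differed by 0.38 ± 0.15 (adjusted p = 0.0537, called on leaving out any of 3), where 34.5% of all probe sets were called. Counted over the 5 probe sets, 20 against 4.5 months gave 2 lower, both of Slc12a5, and 1 higher, of Slc12a2, where 38.5% of all probe sets were called. For 20 against 9 months 40.4% of all probe sets were called, and the members called were both probe sets of Slc12a5, lower, and 1448780_at, higher by 0.40 ± 0.16 (adjusted p = 0.0395), a call lost on leaving out any of 8 of the 12 mice (adjusted p up to 0.0994). Against 10 days all 5 probe sets were higher at 14.5 months and 4 of them at 20 months, the exception being 1425337_at, where 57.7% and 59.1% of all probe sets were called (without quantile normalization 1451674_at was the exception at 14.5 months, and all 5 were called at 20 months). The Slc12a2 probe sets followed each other closely from array to array, with r = 0.868 and 0.822 against 1417622_at over the 31 arrays, and 0.852 and 0.614 within groups.

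Slc12a2 also moved with choroid plexus from mouse to mouse. The choroid plexus markers Ttr, Folr1, Kl, Otx2, Clic6, Kcne2, Sostdc1, Slc4a5 and Aqp1 averaged 5.653, 5.933 and 8.324 in the Tg mice of 10 days and 9.882, 9.21, 9.911 and 7.688 in the wt mice of 10 days. At 4.5 months they were between 6.34 and 10.73 in Tg mice and between 4.984 and 9.46 in wt mice, at 9 months between 5.867 and 10.64 in Tg mice and between 9.127 and 9.43 in wt mice. In the older groups they were between 7.594 and 10.98 in Tg mice and between 7.895 and 10.59 in wt mice. Ttr, the thyroxine carrier of choroid plexus, read 8.523 or more on all 31 arrays, over the array median of 6.84, and 2 of the 9 markers stayed above that median on every array. Others were near the floor on some arrays. In Tg mice of 10 days Kcne2 read 1.696 in mouse 1 and Otx2 read 0.5711 in mouse 2, from deposited signals of 3.901 and 1.315. Such values enter the marker mean, which is therefore no measure of the amount of tissue. With the mean of each group taken off, 1417622_at correlated with the marker mean at r = 0.764 (permutation within groups, p = 0.00017, adjusted p = 0.00306 over 18 relations) and Spearman's rho = 0.823 (permutation p = 4e-05, adjusted p = 0.00072), over 31 mice, and r was 0.804 without the 2 mice farthest from the median. The same correlation for 1451674_at of Slc12a5 was 0.0243 (permutation p = 0.926).

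**Figure D2:**
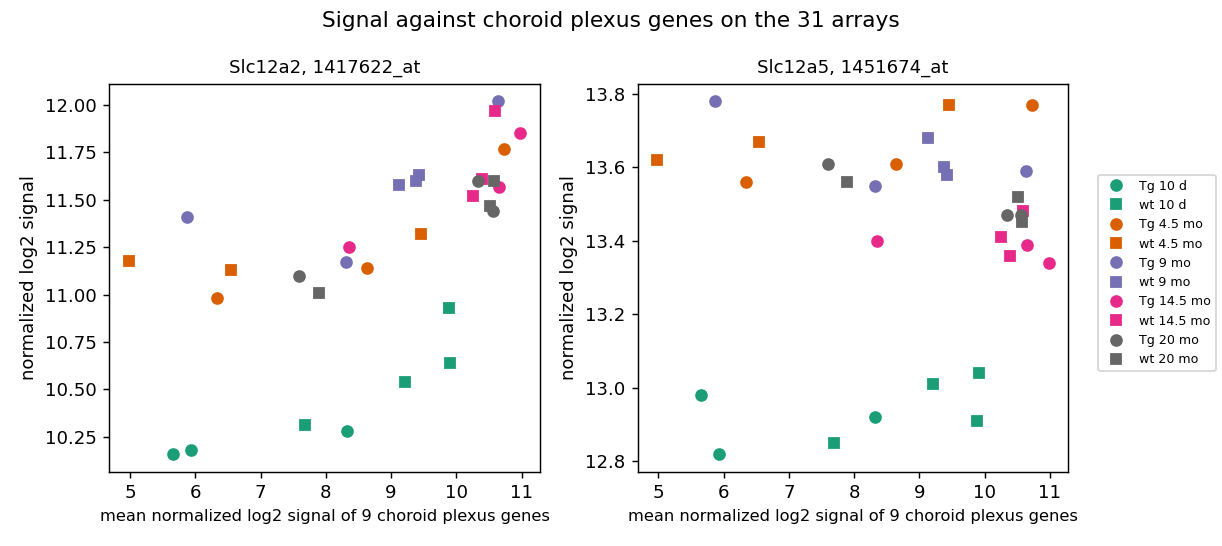
Normalized log2 signal of Slc12a2 (left) and Slc12a5 (right) against the mean normalized log2 signal of 9 choroid plexus genes, with a circle for each Tg mouse, a square for each wt mouse and a colour for each age. Within an age Slc12a2 is higher in mice with more choroid plexus signal, while Slc12a5 shows no such slope.

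With the choroid plexus mean as a covariate, chosen after seeing the data, the early rise of Slc12a2 was 0.86 ± 0.09 in 1417622_at (adjusted p = 3.64e-09, limma), 0.57 ± 0.10 in 1448780_at and 0.57 ± 0.12 in 1417623_at for 4.5 months against 10 days. For 20 against 4.5 months the covariate gave -0.12 ± 0.10 in 1417622_at (adjusted p = 0.401), 0.35 ± 0.11 in 1448780_at (adjusted p = 0.0135) and 0.13 ± 0.14 in 1417623_at (adjusted p = 0.515). The later rise of 1448780_at was thus 0.61 without and 0.35 with the covariate. Among the 9 markers themselves limma called 0 for 4.5 months against 10 days (1 at an unadjusted p under 0.05) and 0 for 20 against 4.5 months (3 at an unadjusted p under 0.05), where their median difference was 1.82. Of the other 8 marker lists, oligodendrocyte lineage went with Slc12a5 in the opposite direction within groups (r = -0.591, adjusted p = 0.0431, permutation, and rho = -0.559, adjusted p = 0.0612, with r = -0.547 without the 2 farthest mice). Microglia went opposite to Slc12a2 (rho = -0.557, adjusted p = 0.0483, permutation, and r = -0.502, adjusted p = 0.0569, with r = -0.521 without the 2 farthest mice).

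No difference between Tg and wt mice was called for either transporter. Over 5 probe sets, 5 ages and the average over ages, 0 of 30 comparisons were called by limma, and 1 had an unadjusted p under 0.05. Averaged over ages the difference was -0.02 ± 0.03 in 1451674_at (adjusted p = 0.904), with a 95% interval of -0.08 to 0.04, and -0.10 ± 0.09 in 1417622_at (adjusted p = 0.811), with a 95% interval of -0.29 to 0.09. Both early rises given above lie outside these intervals, which hold for the average over ages and are wider at single ages. Calls between the genotypes were few in all probe sets, at 0.0372% at 10 days, 0% at 4.5 months (1601 at an unadjusted p under 0.05), 3.48% at 9 months, 0% at 14.5 months (263 at an unadjusted p under 0.05), 0.026% at 20 months and 0.00744% for the average.

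The difference nearest to a call was that of 1425337_at at 9 months. It read 10.14, 10.76 and 10.87 in Tg mice and 10.22, 9.55 and 10.31 in wt mice, where the lowest Tg mouse lay below 2 of the wt mice. The difference was 0.56 ± 0.17 (adjusted p = 0.0547, limma). Its SE rests on a spread shared by all 10 groups. The SD of this probe set was 0.395 in Tg and 0.42 in wt mice of 9 months, and 0.0611 to 0.189 in the other groups. The shared SE does not reflect that wider spread at 9 months, nor do the fits that follow. Leaving out 1 mouse of that age at a time gave 0.32 to 0.79 with adjusted p between 0.00632 and 0.295. The difference was called without Tg mouse 1, wt mouse 1 or wt mouse 3. In 1451674_at the same comparison was 0.02 ± 0.06 (adjusted p = 0.896), so that both readings of the gene gave different sizes.

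In the brightest Slc12a2 probe set the largest difference between Tg and wt was that of the pups, while in 1417623_at and 1448780_at it was that of 4.5 months (0.28 and 0.20). All 3 Tg pups, at 10.16 to 10.28 in 1417622_at, were below all 4 wt pups, at 10.31 to 10.93, with a difference of -0.40 ± 0.20 that was not called (adjusted p = 0.707, limma, 95% interval -0.81 to 0.01). The choroid plexus markers averaged 6.637 in Tg and 9.173 in wt pups, with overlap between single mice, and with that covariate the difference was -0.07 ± 0.14 (adjusted p = 0.987). For the same pups 1448780_at gave -0.10 ± 0.20 without and 0.27 ± 0.15 with the covariate (adjusted p = 0.801), and 1417623_at gave -0.00 ± 0.23 without and 0.39 ± 0.18 with it (unadjusted p = 0.0403, adjusted p = 0.724). The rise of 1417622_at by 4.5 months was 1.09 ± 0.21 in Tg and 0.60 ± 0.20 in wt mice, which differed by 0.49 ± 0.29 (adjusted p = 0.765). In 1448780_at it was 0.70 ± 0.22 in Tg mice (adjusted p = 0.00939, limma) and 0.40 ± 0.20 in wt mice (adjusted p = 0.103), and in 1417623_at it was 0.69 ± 0.25 in Tg mice (adjusted p = 0.023) and 0.41 ± 0.23 in wt mice (adjusted p = 0.143). The genotypes were not called different in these rises (0.30, adjusted p = 0.896, and 0.28, adjusted p = 0.922), and 48.4% of all probe sets were called within Tg and 53.3% within wt mice. Over all probe sets 0% (1906 at an unadjusted p under 0.05) differed between the genotypes in the early change and 0.00744% in the change between 4.5 and 20 months. An F-test of genotype by age called none of the 5 probe sets, with adjusted p between 0.524 and 0.991, and 0.0484% of all. The smallest unadjusted p among the 5 was 0.0412, for 1425337_at.

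The ratio of both transporters was followed as the difference of their log2 signals within an array, 1451674_at minus 1417622_at. Its zero is arbitrary, since probe sets differ in brightness for reasons other than RNA level, and only its changes between mice are read. It carries no test. At 10 days it was 2.50 ± 0.27 (SD, n = 7), at 4.5 months 2.41 ± 0.21, at 9 months 2.06 ± 0.30, at 14.5 months 1.77 ± 0.25 and at 20 months 2.14 ± 0.31 (SD, n = 6 each). The lowest mean was that of 14.5 months, where the mice lay between 1.49 and 2.15, against 1.98 to 2.83 at 10 days, so even these ages overlapped. The difference between 4.5 months and 10 days was -0.11 ± 0.16 (SE), beside the rises of 0.74 in Slc12a5 and 0.85 in Slc12a2. The difference between 20 and 4.5 months was -0.27 ± 0.16 (SE), and it was -0.04 with the choroid plexus covariate.

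The course of the ratio depended on the probe sets that stood for the genes. Over the 6 possible pairs the difference between 4.5 months and 10 days was between -0.11 and 0.95, and was negative only in the pair of the brightest probe sets. The difference between 20 and 4.5 months was between -1.87 and -0.27 and negative in all 6, which share their probe sets and are not separate evidence. With 1425337_at in place of 1451674_at the ratio was -1.55 ± 0.27 at 10 days (SD, n = 7), -0.87 ± 0.20 at 4.5 months, -1.26 ± 0.49 at 9 months, -1.38 ± 0.29 at 14.5 months and -2.25 ± 0.34 at 20 months (SD, n = 6 each). There the old mice, at -2.54 to -1.77, lay below all mice of 4.5 months, at -1.25 to -0.66.

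By genotype the ratio of the brightest pair was apart at 10 days. It was 2.70 ± 0.11 in Tg and 2.34 ± 0.25 in wt pups (SD, n = 3 and 4), and Tg pups, at 2.64 to 2.83, were above wt pups, at 1.98 to 2.54. Beside it stand the choroid plexus markers, at 6.637 in Tg and 9.173 in wt pups, and the difference of 1417622_at in these pups was -0.40 without and -0.07 with them as a covariate. For Tg minus wt pups the other Slc12a2 probe sets were at -0.10 and -0.00, and 1451674_at of Slc12a5 at -0.04. The genotypes overlapped at the other 4 ages, as at 20 months with 2.14 ± 0.34 in Tg and 2.15 ± 0.36 in wt mice (SD, n = 3 each). Averaged over ages the difference of Tg minus wt mice was 0.08 ± 0.10 (log2, SE), and 0.02 with the choroid plexus covariate.

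**Figure D3:**
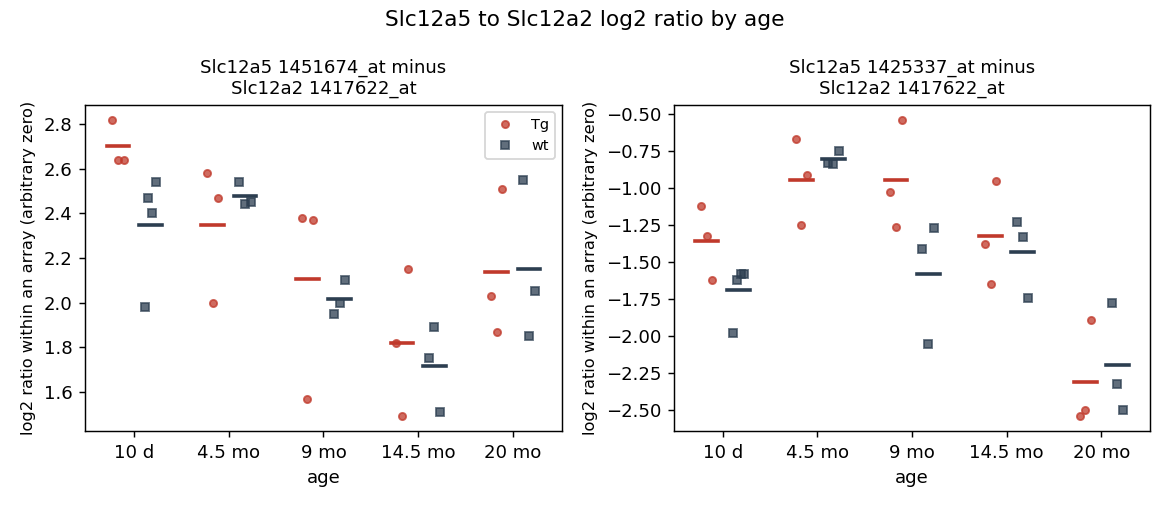
Log2 ratio of Slc12a5 to Slc12a2 within each array (vertical axis, arbitrary zero) at the 5 ages, with a red circle for each Tg mouse, a dark square for each wt mouse and a bar for each group mean, using 1451674_at (left) or 1425337_at (right) for Slc12a5. Over both genotypes the mean is highest at 10 days (2.50) and lowest at 14.5 months (1.77) on the left, and highest at 4.5 months (-0.87) and lowest at 20 months (-2.25) on the right.

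Other genes of chloride handling moved in both directions in early life. Of 69 genes listed as relatives, regulators or partners of the transporters, 56 could be tested, and 24 were higher and 17 lower at 4.5 months than at 10 days, with a median of 0.13. Over all 12844 genes 31.2% were called higher and 35.5% lower, with a median of -0.04, so that changes were frequent outside these lists too. Among the cotransporter relatives 1 of 3 fell, Slc12a7, the potassium-chloride cotransporter KCC4, by 2.0 on the log2 scale (SE 0.43, adjusted p = 0.000179, limma). For Slc12a4, the gene of KCC1, the difference was -0.32 ± 0.16 (adjusted p = 0.0774), and for Slc12a9 it was 0.17 ± 0.09 (adjusted p = 0.112).

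The WNK kinases sense chloride and, through the kinases SPAK and OSR1, switch NKCC1 on and KCC2 off by phosphorylation. Of 9 genes of that cascade 3 rose and 3 fell by 4.5 months. Wnk1 rose by 0.76 ± 0.05 (adjusted p = 8.02e-14, limma), and Kcnj10, a potassium channel of astrocytes listed with the cascade, rose by 0.58 ± 0.11. Wnk2 fell by 0.49 on the log2 scale (SE 0.08, adjusted p = 3.18e-06), and so did Cab39, which activates SPAK and OSR1, by 0.23. Of 15 partners and regulators of KCC2, 6 rose and 6 fell. Src, a tyrosine kinase, rose by 1.63 ± 0.08 (adjusted p = 3.88e-17). Ppp1ca, a catalytic subunit of protein phosphatase 1, fell by 0.76 on the log2 scale (SE 0.04), and Neto2, an auxiliary subunit of kainate receptors that binds KCC2, fell by 0.94 (SE 0.07).

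The E-box factors did not move alike. Usf2 rose by 1.16 ± 0.08 at 4.5 months against 10 days (adjusted p = 5.73e-13, limma) and fell by 0.98 on the log2 scale at 20 against 4.5 months (SE 0.09, adjusted p = 2.12e-10). Its partner Usf1, named after its values were seen, fell by 0.48 in the first comparison (SE 0.13, adjusted p = 0.00143) and differed by 0.17 ± 0.13 in the second (adjusted p = 0.341). Beside them stand the values of Slc12a5 given above, 1.5 and -1.26 in 1425337_at, and 0.74 and -0.15 in 1451674_at. Both comparisons share the mice of 4.5 months, so a deviation of those arrays enters both with opposite sign. Whether these factors act on the printed E-box was not tested.

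Of 17 genes for other chloride and bicarbonate routes 9 rose and 4 fell by 4.5 months. The carbonic anhydrases Car2 and Car7, which supply the bicarbonate that also passes GABA-A receptors, rose by 1.29 ± 0.06 and 0.82 ± 0.08 (adjusted p = 1.28e-16 and 4.03e-10, limma). Slc4a4, a sodium-bicarbonate cotransporter, rose by 0.55 ± 0.06, and Clcn4, an endosomal chloride-proton exchanger, fell by 0.37 on the log2 scale (SE 0.04). Among beta subunits of the sodium pump, which builds the gradients that both transporters use, Atp1b2 rose by 1.04 ± 0.05 and Atp1b1 by 0.40 ± 0.06, and Atp1b3 fell by 0.20 on the log2 scale. Of 9 GABA-A receptor subunits 4 rose and 2 fell, with Gabra4 at 0.86 ± 0.05, Gabrb1 at 0.68 ± 0.06, Gabrd at 0.98 ± 0.11 and Gabrb2 at 0.32 ± 0.05. The subunits named are all among those that rose. Over the 9 the differences ran between -0.86 and 0.98, with a median of 0.08.

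For 20 against 4.5 months 13 of the 56 were higher and 11 lower, with a median of -0.05, beside 22.4% higher and 19.9% lower among all genes, whose median was 0.03. This comparison shares the mice of 4.5 months with the early one, so opposite changes of a gene in both are not separate observations. Src fell by 1.45 on the log2 scale (SE 0.08, adjusted p = 1.01e-14, limma), and Ppp1ca rose by 0.35 ± 0.04 and Bdnf, a neurotrophin that regulates KCC2, by 0.34 ± 0.09. Atp1b2 fell by 0.85 (log2, SE 0.05), while Atp1b3 rose by 0.55 ± 0.08. In the WNK cascade 3 of 9 rose, namely Wnk1 by 0.26 ± 0.05, Wnk3 by 0.34 ± 0.08 and Cab39 by 0.17 ± 0.04. Slc12a9 fell by 0.52 on the log2 scale (SE 0.10), and Slc12a7 rose by 1.13 ± 0.44 (adjusted p = 0.042).

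The remaining lists were mixed in aging. Of the other chloride and bicarbonate routes 4 rose and 5 fell. Lrrc8c, a subunit of volume-regulated anion channels, rose by 0.65 ± 0.07 and Car2 by 0.40 ± 0.07, while Car7 fell by 0.49 and Clcn4 by 0.29 on the log2 scale. Among GABA-A receptor subunits Gabra5 fell by 0.26 (log2, SE 0.06, adjusted p = 0.00105, limma), Gabrg1 rose by 0.37 ± 0.10 and Gabra2 by 0.20 ± 0.08. Between Tg and wt mice 1 of the 56 genes was called at 9 months, Clcn3, a chloride-proton exchanger of vesicles, which was higher in Tg mice by 0.48 ± 0.12 (adjusted p = 0.0273), and 13 of the 56 had an unadjusted p under 0.05 there, beside 5157 of all 26877 probe sets. At 9 months limma called 3.48% of all probe sets. At the other ages and on average limma called 0 of the 56, with 22 of 280 comparisons at an unadjusted p under 0.05. Of all 26877 probe sets, 1914 were under 0.05 at 10 days, 1601 at 4.5 months and 263 at 14.5 months. At 20 months 1199 were, and 2255 on average.

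**Figure D4:**
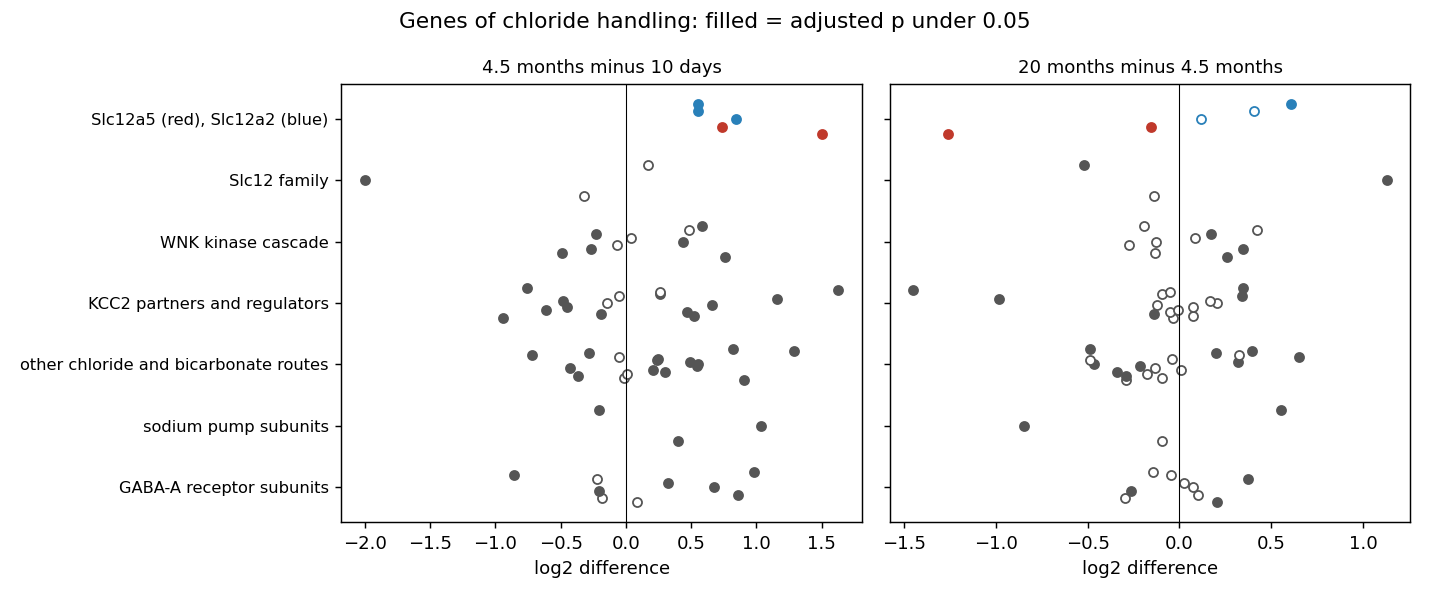
Log2 difference (horizontal axis) of each probe set of Slc12a5 (red) and Slc12a2 (blue) and of 56 genes of chloride handling (grey, 1 point for a gene, in rows by list), for 4.5 months minus 10 days (left) and 20 months minus 4.5 months (right). Filled points have an adjusted p under 0.05. All 5 points of the transporters are to the right of 0 on the left, and on the right those of Slc12a5 are to the left of 0 and those of Slc12a2 to the right.

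Across the 31 arrays the genes whose signal ran most like 1451674_at of Slc12a5, of 12842 compared by Pearson's r, were Synj1 (0.965), Syt1 (0.963), Scn2b (0.962), Aifm3 (0.954) and Prune2 (0.953). Synj1 and Syt1 code for the presynaptic proteins synaptojanin and synaptotagmin, and Scn2b for a sodium channel subunit. Cops5 (-0.953) and Dbi (-0.949) ran most opposite to it. For 1417622_at of Slc12a2 the list was Fxyd1 (0.944), Slc23a2 (0.94), Ephx1 (0.932), Car12 (0.924) and Zadh2 (0.923), with Zdhhc16 (-0.906) and Smap1 (-0.9) at the other end. Fxyd1 codes for the sodium pump regulator phospholemman and Slc23a2 for a vitamin C transporter. These values describe arrays that share their ages, and the 2 transporters themselves correlated at r = 0.729 over the 31 arrays and at 0.0922 within groups.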

How the data were processed

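Hippocampal RNA of male mice was hybridised to 31 Affymetrix Mouse Genome 430 2.0 arrays. The deposited values are signal intensities that the authors made with MAS5 (per the labels), linear and scaled to a trimmed mean of 500. The paper describes RMA values and gives 3 wt mice at 10 days, where the labels give 4. Such values and detection calls were not used here. After 64 control probe sets were set aside, signals were turned to log2 and quantile normalized, and a probe set entered the tests if at least 3 arrays read it above their median. Of 45037 mouse probe sets 34945 were listed for 1 gene, 932 for several and 9160 for none, and a gene was shown by its brightest probe set.

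Limma 3.58.1 (R 4.3.3) fitted a mean for each of the 10 groups, with trended and robust moderation, and the model was checked on simulated data. SAM, Cyber-T and EDGE, which the paper names, were not run. Each array was taken as 1 mouse, and the number of arrays limits the precision. Correlations with cell type markers used permutation within groups (1e+05 draws). Named genes were every probe set of both transporters, the 2 to 4 smallest p of each list, and the 5 most and 2 least alike by r. Of 69 listed genes 10 had no probe set listed for them alone and 3 were too dim. The members and lists were chosen with earlier results of these data known. Alternatives were no quantile normalization, 50 added before log2, no filter or one at the 60th percentile, plain moderation, a replicate block, each mouse left out, the mean over probe sets, only the ages compared, stricter thresholds and, chosen after seeing the data, a choroid plexus covariate. Promoter sequences are from RefSeq (GRCm38.p6).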

Additional observations from a re-analysis of the deposited data

How the results depend on the processing

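The early rise of Slc12a5 and of Slc12a2 kept its direction and its call under each alternative run, with 0.707 to 0.759 for Slc12a5 and 0.73 to 0.928 for Slc12a2 when 1 mouse was left out at a time. Its size shifted further under other alternatives. For Slc12a5 it was 0.54 without quantile normalization and 1.12 as the mean over probe sets, and for Slc12a2 it was 0.825 and 0.65. The fall of Slc12a5 between 4.5 and 20 months was -0.176 to -0.123 with 1 mouse left out, and without quantile normalization it was -0.0482 and no longer called, and as the mean over probe sets it was -0.708 (adjusted p = 4.09e-09, limma). Without quantile normalization the median of all probe sets in the early comparison was 0.138 in place of 0.0133. For Slc12a2 the same difference was 0.0362 to 0.234 with 1 mouse left out, 0.377 (adjusted p = 0.0427, limma) as the mean over its probe sets and -0.121 with the choroid plexus covariate, which was chosen after seeing the data.

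No difference between Tg and wt was called for the brightest probe set of either gene under any alternative run, and signs of small differences turned. Without quantile normalization Slc12a5 at 9 months was -0.033. The mean over probe sets gave 0.0227 for Slc12a5 and 0.0193 for Slc12a2 on average, -0.0429 for Slc12a5 at 20 months and 0.033 for Slc12a2 at 9 months. A larger shift was that of Slc12a5 at 9 months, with 0.29 ± 0.10 as the mean over probe sets (adjusted p = 0.11, limma). In its brightest probe set alone that difference was 0.0205. The covariate gave -0.122 for Slc12a2 at 4.5 months and 0.0683 at 9 months. With 1 mouse left out Slc12a5 was -0.0318 to -0.00914 on average, and -0.0812 to -0.00128 at 10 days, -0.0984 to 0.00738 at 4.5 months, -0.0485 to 0.0631 at 9 months, -0.0656 to -0.00549 at 14.5 months and -0.0399 to 0.0317 at 20 months. Slc12a2 was -0.15 to -0.0645 on average, and -0.5 to -0.293, -0.151 to 0.245, -0.313 to 0.114, -0.285 to 0.0141 and -0.157 to 0.161 at the same ages. The ratio of the brightest probe sets was -0.171 to -0.0233 in the early comparison, -0.37 to -0.194 in aging and 0.0453 to 0.137 for Tg against wt with 1 mouse left out, and 0.467 and -1.09 in the first 2 of these as the mean over probe sets, with 0.00336 in the third. In the same order the choroid plexus covariate gave -0.126, -0.035 and 0.0153. Without quantile normalization the first 2 were -0.285 and -0.181.

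The labels give no pairing of mice. The deviations of same-numbered Tg and wt mice of an age correlated at -0.112 to 0.0549 over 15 pairs of mice. Such values cannot settle whether same-numbered mice were handled together. With the replicate block the early rise was 0.72 for Slc12a5 and 0.798 for Slc12a2. Only the wt mice of 10 days include a mouse numbered 4, and leaving that mouse out without a block gave 0.72 and 0.797. With the block 1 of 75 calls of the 5 probe sets over ages and genotypes changed (1417622_at at 14.5 against 4.5 months, 0.376, adjusted p = 0.0378 in place of 0.0537, limma). In the early comparison 16709 probe sets were called in place of 17078. The fit of only the ages compared gives no value for the average over ages. The causes of these shifts were not tested beyond what each alternative changes.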
